A study of Mus musculus with 3 samples.

Results

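The genes of the smooth muscle contractile apparatus were examined in single-cell RNA-seq data from mouse aortas. They were 31 genes of the 32285 features in the count tables, taken by symbol from a list of thin filament, myosin, adhesion and intermediate filament genes, and all 31 were found. The mice were male and C57BL/6J backcrossed, and the mouse Apoe gene had been replaced by a human allele, APOE2, APOE3 or APOE4. Mice of all 3 groups were 12 weeks old when a Western diet (42% fat, 0.2% cholesterol) began, and ate it for 16 weeks, so that diet was shared by every sample here. The aorta was taken whole, from the arch to the iliac bifurcation, and dissociated cells were pooled within a genotype (6 mice for APOE2, 5 for APOE3, 7 for APOE4) into 1 droplet library. The data therefore held no replicate of a genotype.

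Vascular smooth muscle cells contract when myosin light chain kinase, activated by calcium, phosphorylates the regulatory light chain of myosin II, and relax when myosin phosphatase removes that phosphate. Force passes from actin filaments through dense bodies and adhesion plaques to integrins and the matrix. Many of these genes are driven by serum response factor and its coactivator myocardin through a sequence named the CArG box. Smooth muscle cells of the diseased aorta are known to lower contractile genes and to express matrix and inflammatory genes such as Vcam1, a leukocyte adhesion molecule.

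Barcodes with at least 200 genes and under 20% mitochondrial UMIs were kept, which left 11772 APOE2, 6737 APOE3 and 8248 APOE4 cells with median depths of 12047, 17618 and 13522 UMIs. Cells were classed by markers that are no members of the contractile list. Smooth muscle-like cells numbered 7897, 5243 and 5965, and their marker levels ran from Mustn1 at 612 to 839 CPM (UMIs of a gene per 1000000 UMIs) down to Nrip2 at 0.0628 to 0.207 CPM. Between 14 and 27 barcodes were shared by a pair of libraries. Mouse Apoe was counted at 181 to 200 CPM in the 3 libraries. The reference holds the mouse genome only, so these counts do not check the genotype labels.

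The CArG box was searched on both strands in RefSeq promoter windows (GRCm38.p6, from 250 bases before to 50 bases after each start). It was found in 1.63% of 32851 windows, and in 1.81% of the 27025 genes with a window. Of the 31 genes, 26 had a window, and 4 of these held the box. The 30 bases around each box are printed, 5′ to 3′ on the gene's strand, with the box in capitals, to show how the 4 boxes differ in letters and position. In the comparison of Vcam1-high with Vcam1-zero cells, described below, 3 of these 4 genes and 26 of the other 27 were called lower. Of all genes tested there, 7.13% were called lower. Those 27 had no box found or no window, so this does not compare genes with and without a box. Myl9 (chr2:156775293-156775322, plus strand) encodes the myosin regulatory light chain, Myl6 (chr10:128493040-128493069, minus strand) the essential light chain, Vcl (chr14:20929161-20929190, plus strand) the adhesion plaque protein vinculin, and Ldb3 (chr14:34588697-34588726, minus strand) a PDZ and LIM protein that binds alpha-actinin.
Myl9: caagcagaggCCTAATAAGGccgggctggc
Myl6: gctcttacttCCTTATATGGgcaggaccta
Vcl: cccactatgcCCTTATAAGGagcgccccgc
Ldb3: gggttacagtCCATTTATGGgcgcagcaag
The boxes began 161, 50, 227 and 35 bases before the RefSeq start used here, in that order, and Ldb3 had a second start 109 bases after its box. The Myl6 stretch lies inside the gene's annotated span. A match is a description of letters in a window, and no match says nothing about sites outside it.

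The 31 genes together took 7.64% of the UMIs of smooth muscle-like cells in APOE2, 8.36% in APOE3 and 7.93% in APOE4. Among the thin filament genes, Acta2, the smooth muscle alpha-actin (chromosome 19, 34241090 to 34255590 on GRCm38, minus strand), stood at 22867 CPM in APOE2, 27184 in APOE3 and 25541 in APOE4. Tagln (transgelin), which binds actin, stood at 14700.5, 16706 and 15281 CPM. Cald1 (caldesmon), a brake on actomyosin, stood at 2215 CPM in APOE2, 2115 in APOE3 and 1821 in APOE4, so APOE2 was the highest library for Cald1 and the lowest for Acta2 and Tagln. Of the motor genes, Myh11, the smooth muscle myosin heavy chain (chromosome 16, 14194535 to 14291372, minus strand), was at 2483, 2544 and 2673 CPM. Mylk, the myosin light chain kinase, was the flattest, at 945, 955 and 951 CPM with overlapping counting intervals. The exact 95% Poisson intervals, which cover counting error only, were narrow for abundant genes (22841 to 22892 CPM for Acta2 in APOE2) and relatively wider for Synm, the intermediate filament protein synemin (32.5 to 34.7 CPM in APOE4). How reads from the near-identical coding sequences of Acta2 and Actg2 were assigned was not checked, so the level of Actg2 is uncertain.

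The contractile genes were first compared between smooth muscle-like and fibroblast-like cells. UMIs were summed per library and class and tested with the edgeR quasi-likelihood test across all genes, with library as a block and Benjamini-Hochberg adjustment. All 31 were higher in smooth muscle-like cells, where 55.1% of the 17788 genes tested were called, 29.8% higher and 25.3% lower. The 3 values of one class did not overlap those of the other for any of the 31, as for 58.3% of all genes. Myh11 differed by 3.61 on the log2 scale (SE 0.08), and its level in fibroblast-like cells was 236, 261 and 272 CPM. The smallest edgeR difference was that of Prkg1, the cGMP-dependent kinase that mediates relaxation by nitric oxide, at 0.97 (SE 0.08, adjusted p = 0.000215). Prkg1 stood in fibroblast-like cells at 197, 211 and 208 CPM against 362, 296 and 332 in smooth muscle-like cells. Synm (1.24), Tln1 (1.50), Ppp1r12b (1.65) and Vcl (1.82) followed, so the less restricted genes included adhesion and phosphatase genes as well as an intermediate filament gene.

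Contractile RNA was also counted in classes other than smooth muscle-like cells. The paper describes macrophage-like and fibroblast-like clusters that express smooth muscle genes, and such cells may be part of these classes. Acta2 stood at 2666, 3853 and 4117 CPM in fibroblast-like cells, 3910, 6732 and 4725 in macrophage-like cells, and 505, 431 and 349 in T and B lymphocyte-like cells. As a percent of the level in smooth muscle-like cells, the median over the 31 genes was 16.4 to 16.9% in fibroblast-like, 18.4 to 21.8% in macrophage-like and 2.08 to 3.14% in lymphocyte-like cells. Tln1 (talin), which activates integrins in leukocytes as well, was far above that in macrophage-like cells, at 77.4 to 94.1%. Ppp1r12a, the targeting subunit of myosin phosphatase, reached 24.5 to 41.6% in lymphocyte-like cells. Without the cells of highest doublet score, the median difference between smooth muscle-like and fibroblast-like cells was 3.67 on the log2 scale, against 2.96 with them. The part of free RNA, of doublets and of cells that express both programs in the levels outside smooth muscle was not tested.

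**Figure D1:**
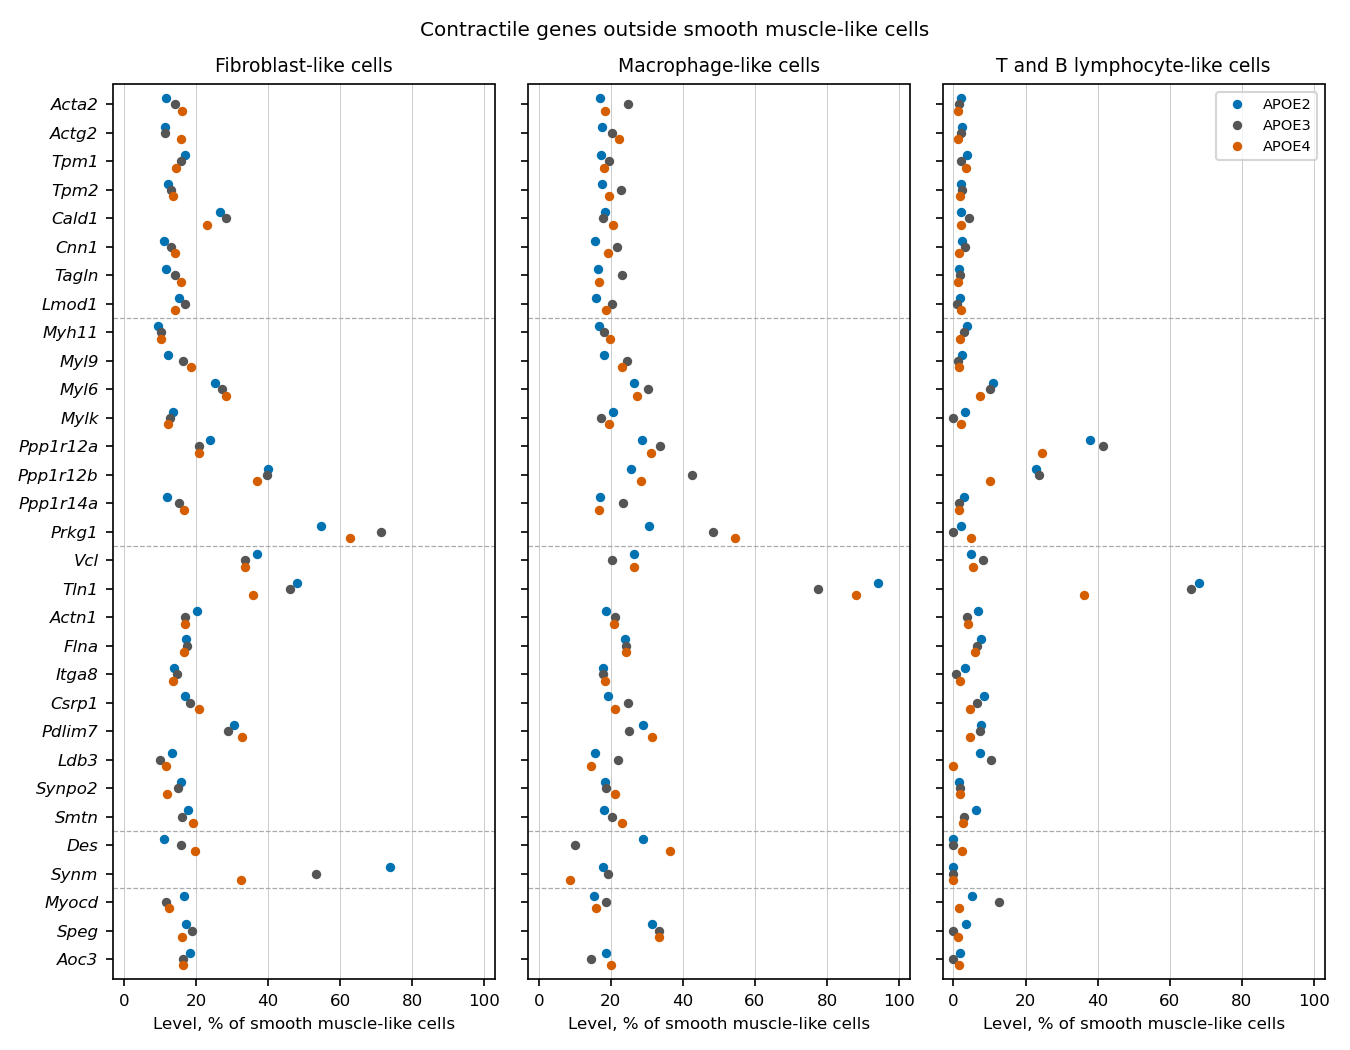
Level of each of the 31 genes in fibroblast-like, macrophage-like and lymphocyte-like cells as a percent of its CPM in smooth muscle-like cells of the same library (points, 1 per library), with dashed lines between thin filament, myosin, adhesion, intermediate filament and other genes. Most genes cluster at one value in a class, with medians of 16.4 to 16.9% in fibroblast-like cells, while Tln1, Prkg1, Ppp1r12a, Ppp1r12b and Synm lie apart.

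The next comparison asked how the contractile genes behave in smooth muscle-like cells that express Vcam1. Each cell was thinned to 3000 UMIs, and cells with at least 3 Vcam1 UMIs (Vcam1-high) were set against cells with none (Vcam1-zero). Vcam1-high cells numbered 280, 92 and 71 in APOE2, APOE3 and APOE4, or 3.63%, 1.78% and 1.20% of the cells deep enough. No lymphocyte-like cell of 94, 19 and 256 passed this gate, which allows shares of up to 3.19%, 15.8% and 1.17%.

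Of the 31 contractile genes, 29 were lower in Vcam1-high cells as a share of UMIs, and none was higher. Of the 16345 genes tested 15.7% were called, 7.13% lower and 8.61% higher. Their median difference was −0.74 on the log2 scale, against −0.03 for all genes. The sums did not overlap between the 3 Vcam1-high and the 3 Vcam1-zero samples for 27 of the 31 (24.2% of all genes). All 8 thin filament and all 8 myosin and regulator genes were lower, as were 9 of 10 adhesion and crosslinker genes and all 3 of Myocd, Speg and Aoc3. Of the 2 intermediate filament genes, Des was lower and Synm was not called.

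Ppp1r14a, which encodes the phosphatase inhibitor CPI-17, showed the largest difference. It stood at 646, 394 and 524 CPM in the Vcam1-high cells of APOE2, APOE3 and APOE4 against 1141, 1039 and 1148 in Vcam1-zero cells, a difference of −1.15 (SE 0.09, adjusted p = 5.72e-07). Myh11 fell from 2674, 2625 and 2731 to 1314, 1197 and 1399 CPM (−1.08, SE 0.06, adjusted p = 1.67e-08). Both genes were lower in every library, with no overlap. Des (desmin), the muscle intermediate filament, was at 63.1, 69.2 and 52.6 CPM against 124.9, 131 and 112 (−1.02, SE 0.09). Myl9 differed by −1.001 (SE 0.11), with per-library values of −0.53 in APOE2, −1.29 in APOE3 and −1.08 in APOE4. Synpo2, an actin-bundling protein of dense bodies, differed by −0.91 (SE 0.07), and Flna (filamin A), which crosslinks actin, by −0.82 (SE 0.07).

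The smallest called differences were those of Speg, a muscle kinase gene (−0.30, SE 0.09, adjusted p = 0.0262), Tln1 (−0.31, SE 0.08) and Myocd, the coactivator myocardin (−0.32, SE 0.08). Myocd stood at 144, 152 and 181 CPM in Vcam1-high cells against 190, 181 and 206 in Vcam1-zero cells. Speg was not called lower in 9 of 19 alternatives, including DESeq2 and leaving out APOE3 or APOE4. Vcl was at 217, 282 and 267 CPM against 258, 278 and 326, with overlapping samples (−0.21, SE 0.08, adjusted p = 0.104). Synm was at 28.5, 38.2 and 42.9 CPM against 30.7, 28.8 and 33.3 (0.16, SE 0.11, adjusted p = 0.41). The adjusted p-values in this and the other subset comparisons are from edgeR over 3 libraries.

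These differences are in the share of a cell's UMIs. Vcam1-high cells held more UMIs, with means of 28709, 29855.5 and 27557 against 15860, 21034 and 17679 in Vcam1-zero cells. In UMIs per cell, the 31 genes summed to 1558, 1435 and 1338 in Vcam1-high cells against 1247, 1799 and 1422 in Vcam1-zero cells, higher in APOE2 and lower in APOE3 and APOE4. On this scale edgeR called 2 of the 31 genes lower, Myh11 (−0.37, adjusted p = 0.0452) and Ppp1r14a (−0.45, adjusted p = 0.0107), and 5 higher, Vcl, Tln1, Synm, Myocd and Speg. These 7 are 22.6% of the members, where 60.8% of all genes tested were called on this scale. Acta2 was at 473, 396 and 385 UMIs per cell against 369.7, 587 and 459 (−0.16, SE 0.21, adjusted p = 0.521). The median of all genes on this scale was 0.68. A larger RNA content and a higher capture per droplet cannot be told apart here.

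**Figure D2:**
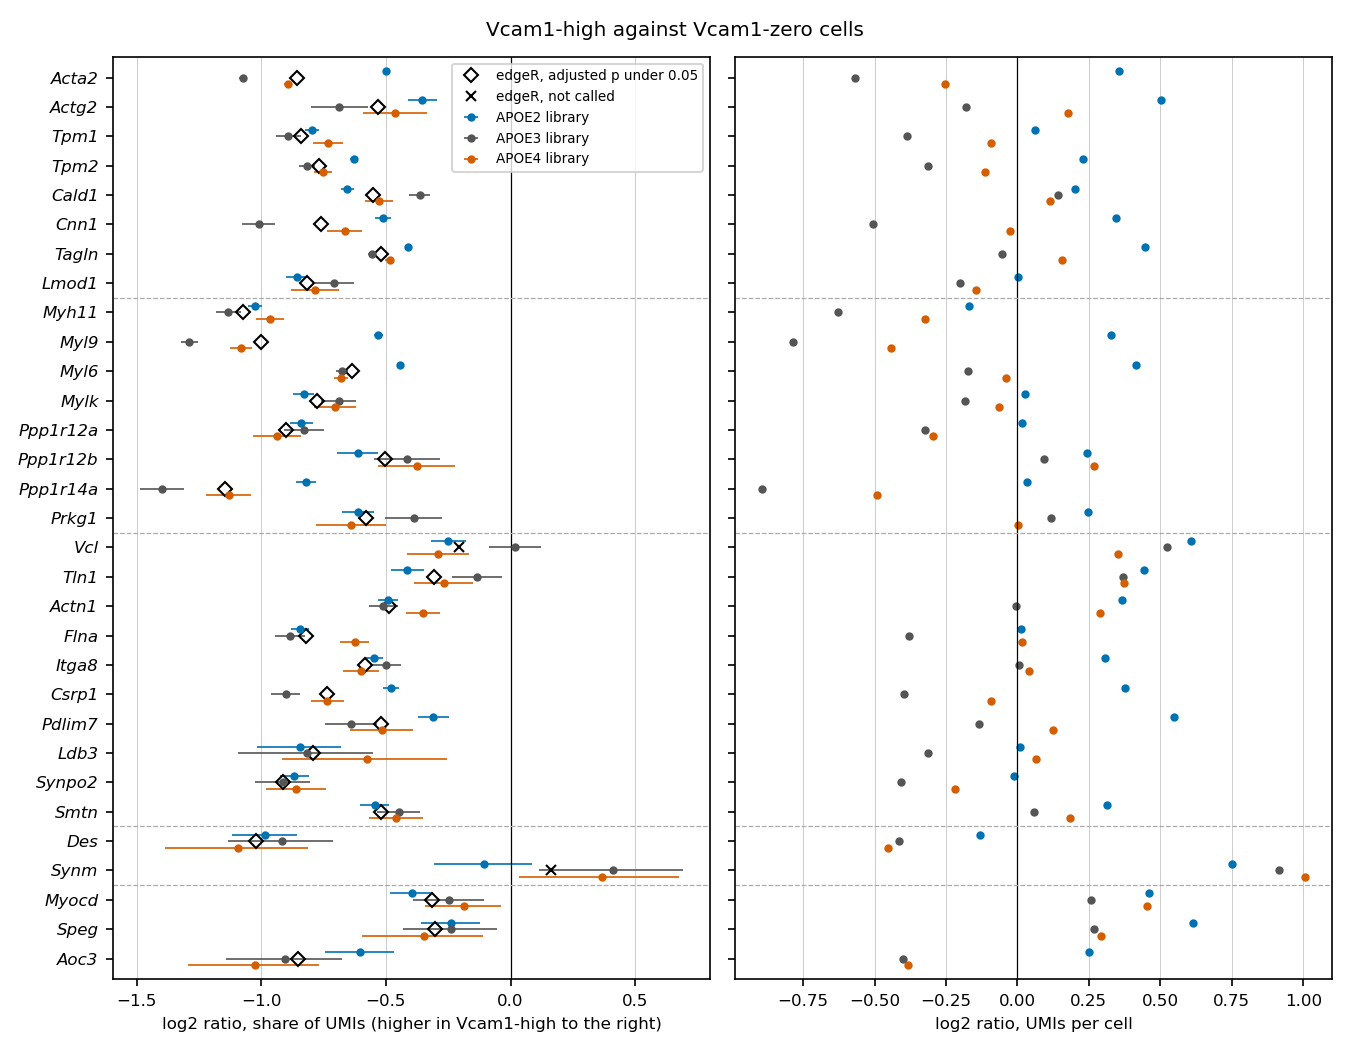
Log2 ratio of Vcam1-high to Vcam1-zero cells for the 31 genes, as share of UMIs (left, points per library with exact 95% binomial counting intervals, and edgeR estimates as diamonds where called and crosses where not) and as UMIs per cell (right, points per library). On the left 29 genes lie below 0 with a call, and on the right the points scatter to both sides of 0. Synm, Vcl, Tln1, Myocd and Speg are among the genes above 0 in every library on the right.

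The fall in share was graded with the Vcam1 count. Cells with 0, 1 to 2, 3 to 7 and 8 or more Vcam1 UMIs gave the 31 genes 7.87%, 7.22%, 6.06% and 4.11% of UMIs in APOE2, 8.55%, 7.29%, 5.23% and 3.64% in APOE3, and 8.04%, 7.14%, 5.48% and 3.49% in APOE4. The order was the same in each library. The highest class held 91, 21 and 20 cells. There, Myh11 was at 936, 695 and 781 CPM. In UMIs per cell the sum was not graded in this way, and the cells with 1 to 2 Vcam1 UMIs held the most in each library (1931, 1924 and 1473).

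**Figure D3:**
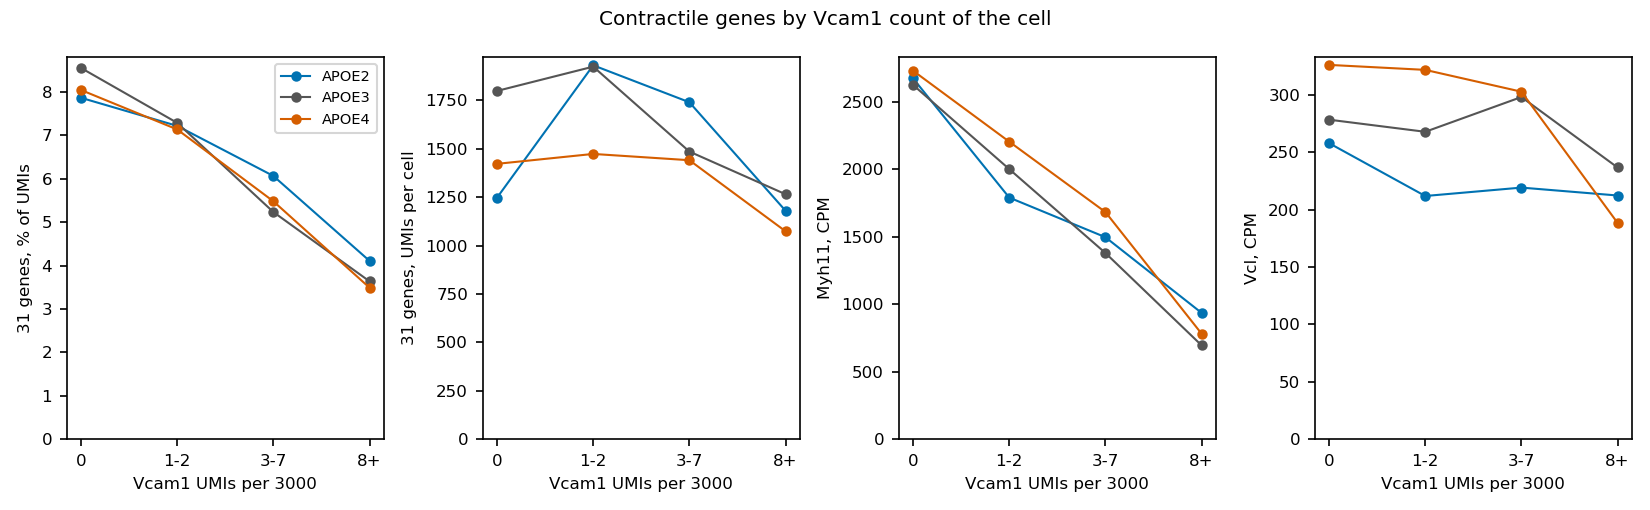
The 31 genes as a percent of UMIs and as UMIs per cell, and Myh11 and Vcl in CPM, by the number of Vcam1 UMIs per 3000 in smooth muscle-like cells (lines join the values of 1 library). The percent and Myh11 fall from class to class in all 3 libraries, while UMIs per cell are highest at 1 to 2 Vcam1 UMIs.

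Other actomyosin, adhesion and regulator genes moved in both directions. Of 40 such genes tested, 17 were lower and 6 higher in Vcam1-high cells. Tpm4, a non-muscle tropomyosin, was higher at 271, 238 and 229 CPM against 126, 117 and 115 (1.01, SE 0.08), and Myh9, the non-muscle myosin heavy chain, at 114, 147 and 164 CPM against 80.9, 75.7 and 65.0 (0.88, SE 0.11). Tpm3 (0.70), another such tropomyosin, and Itga5 (0.72), a subunit of the fibronectin receptor, were also higher. Itga1, a collagen receptor subunit (−0.99), and Pdlim3, an alpha-actinin partner (−0.98), were lower. Srf, the transcription factor, was not called (−0.31, adjusted p = 0.222).

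Several other measures moved with the Vcam1 gate. All 9 genes listed for modulated smooth muscle were called higher, where 8.61% of all genes were. The list was chosen with earlier results of these data known, so these calls are no independent support. Of the 9, 6 were also called higher in fibroblast-like than in smooth muscle-like cells. Timp1, an inhibitor of matrix proteases, was at 1114, 538 and 791 CPM in Vcam1-high against 31.9, 16.4 and 11.7 in Vcam1-zero cells. Mgp (matrix Gla protein) was at 26519, 52805 and 31915 CPM against 9645, 10551 and 5994. Spp1 (osteopontin) was at 1579.6, 135 and 73.1 CPM against 11.3, 0.74 and 0.267. Ly6a and Ly6c1 were far less uniform. Ly6a was at 86.0, 3.28 and 3.58 CPM against 14.1, 4.75 and 1.57, so it was lower in APOE3. Ly6c1 was at 21.8, 1.82 and 0.511 CPM against 3.58, 1.16 and 0.369, near the floor outside APOE2. The fibroblast list summed to 2527, 1401 and 1243 CPM against 948, 1237 and 857, and the macrophage list to 99.6, 16.0 and 7.16 against 32.8, 11.5 and 9.52. Cells with at least 2 cell cycle UMIs made up 8.57%, 6.52% and 15.5% against 0.997%, 0.736% and 1.29%. Without them 28 of the 31 genes were still lower, where 15.2% of all genes were called. A stricter fibroblast limit gave 29 (16.5% of all genes). The 15 stress genes gave 3 calls higher and 1 lower. Cells with a Hox UMI were fewer among Vcam1-high cells (4.64%, 7.61% and 5.63% against 12.1%, 15.9% and 18.1%). With those cells removed from both sides 29 of the 31 genes were lower, where 14.7% of all genes were called.

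Position along the aorta was then compared. Hand2, a transcription factor of neural crest derivatives, marks smooth muscle of the arch, and posterior Hox genes mark the descending aorta. Thinned cells with a Hand2 UMI and no Hox UMI (arch-gated) numbered 1220, 473 and 376, and those with a Hox UMI and no Hand2 UMI (descending-gated) 865, 773 and 1037. Another 23, 12 and 7 cells had both. Hand2 was seen in no lymphocyte-like cell, and the Hox list in 1 of 94, 0 of 19 and 4 of 256, against 11.5%, 15.2% and 17.7% of smooth muscle-like cells.

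The contractile genes differed little by position. Together they took 7.58%, 8.38% and 7.74% of UMIs in arch-gated cells against 7.97%, 8.75% and 8.34% in descending-gated cells, lower in the arch in all 3 libraries. Of the 31, 4 were called lower and 1 higher in the arch, where 4.23% and 6.59% of 13628 genes were (10.8% in all). For 7 of the 31 the groups did not overlap, against 12.2% of all genes. Their median difference was −0.06, against −0.01 for all genes.

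Cald1 was at 2041, 1873 and 1662 CPM in the arch-gated cells of APOE2, APOE3 and APOE4 against 2645, 2350.1 and 1939.7 (−0.28, SE 0.04, adjusted p = 0.000445). It was lower in each library, although the groups overlapped. Both targeting subunits of myosin phosphatase were lower. Ppp1r12a stood at 749.7, 712 and 752 CPM against 869.5, 904 and 900.3 (−0.25, SE 0.04, adjusted p = 0.00112), and Ppp1r12b at 215, 197 and 210.5 against 255, 249 and 251 (−0.25, SE 0.04, adjusted p = 0.00171). Neither overlapped. Synpo2 was at 487, 405 and 489 CPM against 539, 489.6 and 531 (−0.15, SE 0.04, adjusted p = 0.029), a call lost in 8 of 16 alternatives, including DESeq2 and leaving out APOE2 or APOE3. Mylk, which acts against the phosphatase, was higher in the arch at 988, 987 and 996 CPM against 867, 889.6 and 909 (0.18, SE 0.03, adjusted p = 0.00442).

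Leaving out APOE3 left 1 of these 5 calls, that of Cald1, where 5.76% of all genes were called. Without library as a block no member was called and 105 genes were (0.80%). In UMIs per cell the 4 lower calls ended, and Mylk was called with Tagln, Actn1, Flna and Des, all higher in the arch. That share of the members, 16.1%, is near the 16.2% of all genes called on this scale, whose median was 0.13. All 15 immediate early and heat shock genes were higher in the arch (median 0.67), and their part in these differences was not tested. Of the 40 other actomyosin genes, 6 were higher and 2 lower in the arch, led by Svil, the membrane-bound actin binder supervillin, at 311, 320.1 and 336 CPM against 193, 202 and 196 (0.73, SE 0.04), and by Palld (palladin) at 55.4, 67.4 and 83.5 against 77.9, 105 and 130.2 (−0.57, SE 0.05).

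Des did not behave alike in the 3 libraries. It stood at 167 CPM in arch-gated against 66.6 in descending-gated cells of APOE2, 148 against 117 in APOE3, and 84.5 against 117 in APOE4, so the direction turned over (0.46, SE 0.23, adjusted p = 0.277). Des was detected in 13.0%, 15.5% and 13.3% of thinned smooth muscle-like cells. The 1% of cells with the most Des held 23.9%, 20.7% and 21.2% of its UMIs, where the 1% of deepest cells held 5.83%, 2.95% and 3.10% of all UMIs. Synm followed with 9.89%, 8.45% and 9.21%, and Lmod1, which nucleates actin filaments, was at 3.88%, 3.43% and 3.68%.

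Between genotypes there was 1 library each, so differences have no replicate check and no p-value. Few contractile genes moved far. From APOE3 to APOE2, 2 of the 31 were at least 1.25-fold lower and none higher, where 7.27% and 6.92% of 8256 genes were (14.2% in all). From APOE3 to APOE4, 1 was lower and none higher (8.89% and 7.39% of 8182 genes, 16.3% in all), and from APOE2 to APOE4, 4 were higher and none lower (8.63% and 12.9% of 8261 genes, 21.5% in all). The medians of the 31 genes were −0.08, −0.02 and 0.05 on the log2 scale, against 0.02, −0.09 and −0.09 for all genes. The directions depended on the cells used. Within Vcam1-zero cells, APOE2 against APOE3 gave 1 higher and 1 lower (15.4% of all genes). There, APOE4 against APOE2 gave 3 higher and 2 lower (22.1%).

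Actn1, the non-muscle alpha-actinin, was at 842 CPM in APOE2 against 1221 in APOE3 and 1198 in APOE4, a log2 ratio of APOE2 to APOE3 of −0.54 (95% counting interval −0.55 to −0.52). It was −0.56 in arch-gated, −0.60 in descending-gated, −0.50 in Vcam1-zero and −0.48 in Vcam1-high cells. Aoc3, an amine oxidase of the smooth muscle surface, stood at 81.4 CPM in APOE2, 104 in APOE3 and 125.5 in APOE4. Its ratio of APOE2 to APOE3 was −0.36, and −0.44, −0.35, −0.32 and −0.02 in the same 4 sets of cells. From APOE2 to APOE4, Aoc3 (0.62), Actn1 (0.51), Vcl (0.38) and Flna (0.37) passed 1.25-fold. Flna stood at 1427, 1519 and 1843 CPM, and Vcl at 249.8, 278 and 325.

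Myl9 was the gene past 1.25-fold between APOE4 and APOE3, at 4625 against 5849.7 CPM (−0.34, interval −0.34 to −0.33). It was −0.44 in arch-gated and −0.33 in descending-gated cells. Set against the median gene, which was 0.09 lower in APOE4, Myl9 did not pass 1.25-fold, and 2 others, Flna and Aoc3, did so upwards. Des again split by position, with a ratio of APOE2 to APOE3 of 0.17 in arch-gated and −0.82 in descending-gated cells. The make-up of the libraries differed beside these values. Hand2 was seen in 16.1%, 9.38% and 6.48% of smooth muscle-like cells of APOE2, APOE3 and APOE4, and the 15 stress genes summed to 12683, 15669 and 22228 CPM. Malat1, a nuclear RNA, was at 29557, 23161 and 27581 CPM. The macrophage list summed to 56.9, 12.0 and 9.50 CPM, the neutrophil list to 34.2, 1.53 and 0.912, and Spp1 was at 285, 5.56 and 1.65, all highest in APOE2. The part of these in the genotype differences was not tested, and genotype, pool and library cannot be told apart.

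**Figure D4:**
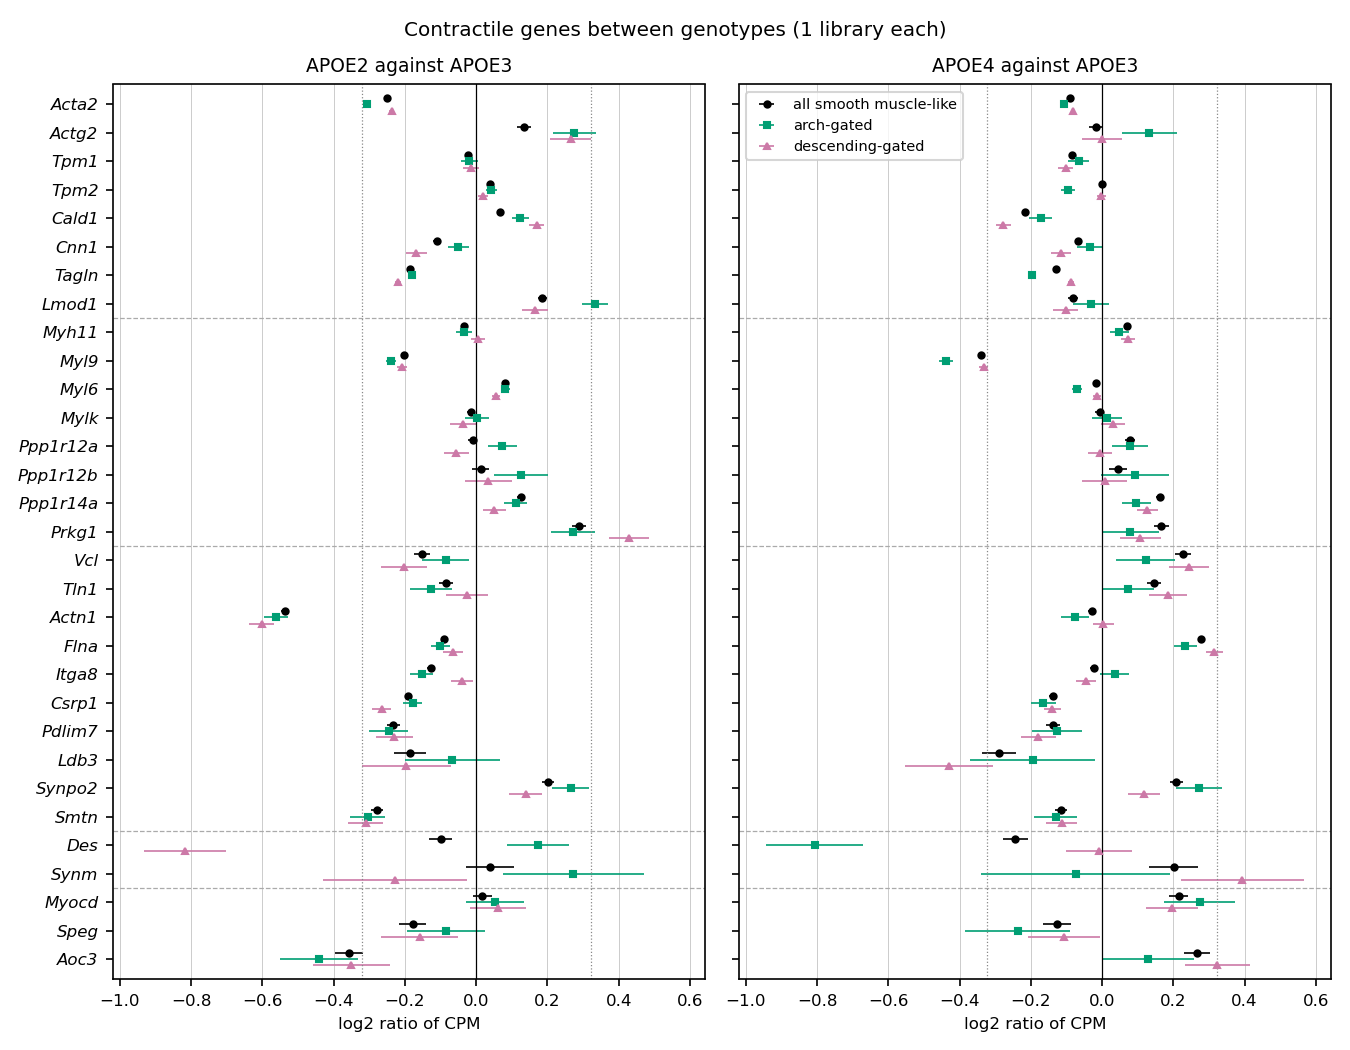
Log2 ratio of CPM of APOE2 to APOE3 and of APOE4 to APOE3 for the 31 genes in all, arch-gated and descending-gated smooth muscle-like cells, with exact 95% binomial counting intervals and dotted lines at 1.25-fold. Most genes lie within the dotted lines, Actn1 is near −0.54 on the left, and Des is spread by position in both panels.

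Depth was checked by setting the shallower against the deeper smooth muscle-like cells of each library. None of the 31 genes was called by edgeR, and DESeq2 called 2 (2.75% of all genes). At an unadjusted edgeR p under 0.05 there were 3. The share of all genes at that unadjusted limit was not counted, so the 3 cannot be set against it. Of 16173 genes tested 3.9% were called, 1.03% higher and 2.86% lower in the shallower cells. The groups did not overlap for 2 of the 31 and for 6.66% of all genes. Des came nearest to a call (−0.27, adjusted p = 0.0542). Without APOE2, 14 of the 31 were called, 6 lower and 8 higher, and 10.2% of all genes.

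Finally, the genes were compared across single cells. In cells thinned to 3000 UMIs, each gene with at least 1 UMI per cell on average was correlated (Spearman) with the sum of the other members. Acta2 had rho of 0.73, 0.58 and 0.62 in APOE2, APOE3 and APOE4, Tpm2, a tropomyosin, 0.63, 0.56 and 0.59, and Myl9 0.63, 0.55 and 0.58. Cald1 was at −0.04, −0.12 and −0.08, and Prkg1 at −0.21 and −0.22 in APOE2 and APOE4. Cells of 1 library share their depth here, and the abundant members dominate the sum.

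The order followed the annotated gene span, from start to end with introns. Over the 22, 22 and 23 genes, the rank correlation of span with this rho was −0.86, −0.85 and −0.87. Myl6, Ppp1r14a, Myl9, Tagln and Tpm2 span 3.29 to 9.06 kb, and Cald1, Itga8 (an integrin subunit), Mylk and Prkg1 span 177 to 1200.55 kb. The same split was seen against Malat1, a nuclear non-coding RNA. Acta2 had rho of −0.44, −0.44 and −0.43 with Malat1, and Cald1 0.31, 0.41 and 0.34, and over the genes the rank correlation of span with the Malat1 value was 0.87, 0.84 and 0.83. Mean level was related to the first rho less closely (0.62, 0.60 and 0.65). Span was itself related to mean level (−0.43, −0.37 and −0.46), so span and level are not separated here. Of the genes, 21 make up the points in every library, with Prkg1 in APOE2 and APOE4 and Tln1 in APOE3 and APOE4 besides. Whether intronic reads were counted was not given in the sources used here. Malat1 itself was not called by edgeR in the Vcam1 comparison (−0.06, adjusted p = 0.638). In Vcam1-high cells it was lower in APOE2 and APOE4 and higher in APOE3. Neat1, the other nuclear RNA listed, was called higher (0.57, edgeR adjusted p = 0.00164). It stood at 91.1, 97.6 and 180 CPM in Vcam1-high cells against 76.6, 64.9 and 89.0.

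**Figure D5:**
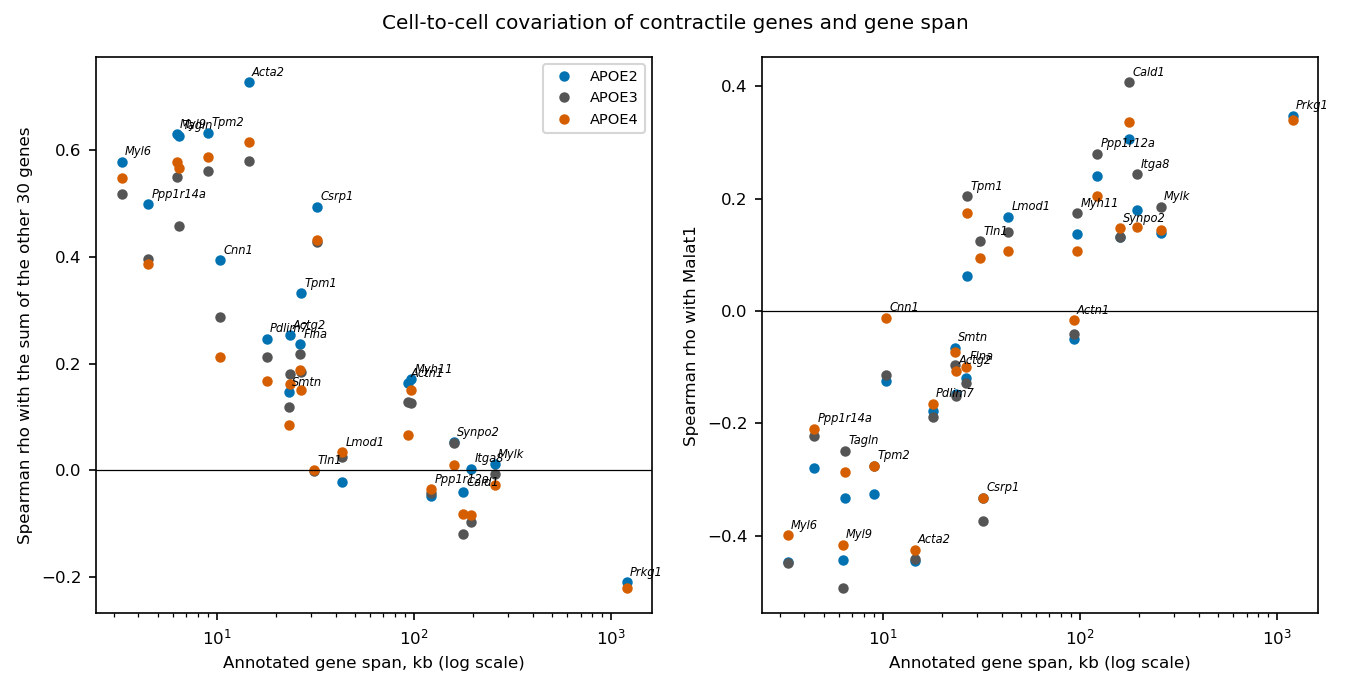
Spearman rho across thinned smooth muscle-like cells of each gene with the sum of the other contractile genes (left) and with Malat1 (right), against the annotated gene span in kb on a log axis (points, 1 per gene and library). Short genes sit at the top left and bottom left, from Myl6 at 3.29 kb, and Prkg1 at 1200.55 kb sits at the far right of both panels.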

How the data were processed

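The authors aligned single-cell RNA-seq reads to mm10 with Cell Ranger (7.0.1 in the file headers) and deposited UMI counts per gene and barcode, not normalized. All other values were computed from these counts in Python 3.11.15 and R 4.3.3. The members and gene lists were chosen with earlier results of these data known, and the limits of the cell classes were set after the cells were seen. All 31 members are named by rule, as are the 4 other pathway genes with the largest called difference in a comparison. Srf, Tpm3 and Itga5 were named after their values were seen.

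A cell was called another type with at least 3 markers of it making up at least 30 UMIs per 10000 (100 for fibroblasts), and unassigned with more than 1 type. It was smooth muscle-like with no such type, at least 3 of 10 smooth muscle markers and under 60 fibroblast marker UMIs per 10000. Scrublet (scanpy 1.11.5) called at most 0.0242% of cells of a library as doublets, so its threshold did not work. Doublets were kept, and an alternative left out the 8% of highest scores.

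Summed counts were tested with edgeR 4.0.16 (TMM, low-count filter, library block, adjusted p under 0.05), after a check on simulated data. DESeq2 1.42.0 was an alternative. Gate genes were left out. Cells under and over their library's median depth were compared as a check of depth. Genotypes were compared by CPM ratios over genes with at least 50 UMIs and 10 CPM, without a test. The Hand2 and Hox gates rest on few UMIs per cell, and most cells had neither. Totals of 132942733, 111401370 and 106331325 UMIs in smooth muscle-like cells of APOE2, APOE3 and APOE4 made counting intervals narrow. Nothing shows that cells of 1 library came from a given mouse.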

Additional observations from a re-analysis of the deposited data

Results flagged for a closer look

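The difference between arch-gated and descending-gated cells ran in opposite directions in different libraries for 4 contractile genes. For each of the 4, exact 95% counting intervals were clear of 0 on both sides. Spread from cell to cell does not enter such intervals, so an abundant gene can meet this rule with a very small difference. Des was uneven between cells, with 20.7% to 23.9% of its UMIs in 1% of smooth muscle-like cells. How many of all genes meet the same rule was not counted, so the 4 have no background to be set against. The log2 ratio of Des was 1.32 in the APOE2 library and 0.33 in the APOE3 library, but −0.47 with APOE4. Synm had 0.41 in APOE2 and −0.56 in APOE4. Tagln (0.0444 in APOE2, −0.11 in APOE4) and Actn1 (0.0603 and −0.0597) turned over by small amounts. With 1 library per genotype the difference between genotypes was not tested.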

How the results depend on the processing

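Every member was higher in smooth muscle-like than in fibroblast-like cells under all 11 alternatives, leave-one-out included (31 calls each). In these, 39.5% to 63.0% of all genes were called. For Vcam1-high cells, leaving out each library gave 27 to 29 calls (12.6% to 17.3% of all genes). A gate of 1 Vcam1 UMI gave 21 calls (11.7% of all genes), with a median of −0.31 over the members. The scale of UMIs per cell, added after seeing the data, gave 7 (5 of them higher) and turned 14 members over, Actg2 (0.17), Cald1 (0.15), Tagln (0.18), Myl6 (0.0673), Ppp1r12b (0.20), Prkg1 (0.12), Vcl (0.50), Tln1 (0.40), Actn1 (0.22), Itga8 (0.12), Pdlim7 (0.18), Smtn (0.18), Myocd (0.39) and Speg (0.40). For arch against descending, 5 calls became 12 with no filter on low counts (9.25% of all genes). They became 1 to 7 on leaving out a library (5.76% to 8.53% of all genes), the lowest without APOE3.

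No paired analysis was possible between genotypes because each had 1 library. Within libraries the replicate block was part of the model, and without the block the counts were 0 for position, 23 for Vcam1, 31 for fibroblast-like cells and 0 for depth. Of all genes, 0.80%, 5.74%, 50.2% and 0% were called there, in that order.

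No member was called between shallow and deep smooth muscle-like cells. At an unadjusted edgeR p under 0.05 there were 3, a count with no share of all genes beside it. DESeq2, thinned sums and a stricter fibroblast limit each gave 2, smooth muscle by exclusion and no filter on low counts each gave 1, and leaving out a library 0 to 14. Of all genes, 2.75%, 3.86%, 6.32%, 3.82% and 5.38% were called in that order, and 4.26% to 10.2% on leaving out a library. The 14 came without APOE2, where Acta2 turned to 0.101 and Prkg1 to −0.13. Acta2 ranged from −0.0599 (without APOE4) to 0.101 on leaving out a library.

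Members past 1.25-fold between APOE2 and APOE3 went from 2 to 4 in descending-gated and 8 in Vcam1-high cells, or 12.9% and 25.8% of members against 18.6% and 29.3% of all genes. Between APOE4 and APOE3 they went from 1 to 2 with the median gene at ratio 1 (all genes 14.4%), 2 in arch-gated (24.1%), 4 in descending-gated (21.5%) and 4 in Vcam1-high cells (36.2%), and between APOE4 and APOE2 from 4 to 7 in descending-gated cells (27.5%). In each of these the members' share was below that of all genes. These shares are not like for like, because the background takes in genes down to 10 CPM and most members stood far above that. The part of counting error in the shares was not tested. Directions changed too. With a fibroblast limit of 30, APOE2 against APOE3 gave 1 higher and 1 lower (all genes 14.8%). APOE4 against APOE2 then gave 4 higher and 2 lower (21.9%). The mean of each cell's CPM gave 1 and 1 (17.4%), then 2 and 2 (22.9%). The members' median of APOE2 against APOE3 was −0.04 in both settings and −0.03 in Vcam1-zero cells. The causes were not tested.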
